A study of Mus musculus with 2 samples.

Results

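Phase II conjugation enzymes are the glutathione S-transferases (Gst genes), UDP-glucuronosyltransferases (Ugt genes) and cytosolic sulfotransferases (Sult genes). Members were taken by gene symbol from the deposited feature lists, as Gst of the alpha, kappa, mu, omega, pi, theta and zeta classes, Ugt of families 1 to 3, and numbered Sult genes. This gave 61 of 27998 genes, 21 Gst, 21 Ugt and 19 Sult genes. The data are single-nucleus RNA sequencing of liver from C57BL/6 mice aged 12 weeks, taken 48 h after PHx (partial hepatectomy, in which lobes of the liver are cut away). The WT library stands for Sox9f/f mice, whose Sox9 gene carries loxP sites, and the HKO library for Sox9HKO mice. Both groups had PHx, the abbreviation HKO and the Cre driver are not given in the sources used here, and each group had 1 library. No difference between libraries therefore has a replicate check and no p-value was computed, and intervals in parentheses are 95% intervals that cover counting error only.

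These enzymes attach a large polar group to drugs, hormones, bile acids, bilirubin and reactive electrophiles, so that the product leaves the cell through export pumps into bile or blood. Gst enzymes use glutathione, Ugt enzymes mostly use UDP-glucuronic acid, and Sult enzymes use the sulfate donor PAPS. In the liver lobule much of the drug metabolism takes place in pericentral hepatocytes, around the central vein, whereas periportal hepatocytes lie where blood enters. Several members are known for a sex bias in mouse liver or for induction by the receptors CAR and PXR, by AHR or by NRF2.

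At least 50 raw UMIs (unique molecular identifiers, counts of single transcripts) over both libraries were found for 46 members, 19 Gst, 19 Ugt and 8 Sult genes. Just inside that limit lay Ugt1a8 with 57 UMIs and Sult1e1 and Ugt2b37 with 77 each, and just outside lay Sult6b1 with 46 and Gsto2 with 29. Of the 15 members under the limit, 11 belonged to the Sult superfamily, and Ugt2a1, Ugt2a2, Sult2a3 and Sult2a5 had no UMI. Levels below are CPM, the UMI count of a gene scaled to the total UMIs of its class and library, and ratios are log2 of HKO over WT after adding 0.5 CPM. A mean of at least 10 CPM in hepatocyte-like nuclei was reached by 24 members, 9 Gst, 11 Ugt and 4 Sult genes. CPM counts 3' tags and not length, so levels of different genes are not ranked.

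The promoters of 4 members are shown because their results recur below, Sult2a8 and Ugt2a3 as the members lower in HKO past the size used, Sult1a1 as 1 of the 2 higher ones, and Gsta3 for its higher level at the pericentral end. They are RefSeq promoters on GRCm38.p6, from 250 bases before to 50 bases after the start, printed 5′ to 3′ along the gene. They lie at chr7:14446538-14446837 (minus strand), chr5:87337146-87337445 (minus strand), chr7:126676369-126676668 (minus strand) and chr1:21240335-21240634 (plus strand). Capitals mark any of 8 motifs searched on both strands: GTTAAT for a partial HNF1 site, the same letters followed after any pair of bases by TTAAC for a full one, which thus overlaps it, TGACNNNGC for the antioxidant response element, GCGTG for AHR, CTTTGAT for TCF, TTCNNNGAA for STAT, CAAAGTCCA for HNF4 and ACANNNTGT for the glucocorticoid receptor.
Sult2a8: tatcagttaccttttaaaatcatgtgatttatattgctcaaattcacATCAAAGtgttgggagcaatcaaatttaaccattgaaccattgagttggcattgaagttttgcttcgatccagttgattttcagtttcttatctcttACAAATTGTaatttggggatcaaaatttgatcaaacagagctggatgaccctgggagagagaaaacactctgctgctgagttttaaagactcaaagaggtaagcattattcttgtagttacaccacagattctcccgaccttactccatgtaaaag
Ugt2a3: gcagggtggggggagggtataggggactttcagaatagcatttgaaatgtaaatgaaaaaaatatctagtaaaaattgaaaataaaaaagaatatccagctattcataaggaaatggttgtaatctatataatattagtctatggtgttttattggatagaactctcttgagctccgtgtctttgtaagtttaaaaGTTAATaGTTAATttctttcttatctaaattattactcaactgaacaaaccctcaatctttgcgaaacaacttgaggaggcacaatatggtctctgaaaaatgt
Sult1a1: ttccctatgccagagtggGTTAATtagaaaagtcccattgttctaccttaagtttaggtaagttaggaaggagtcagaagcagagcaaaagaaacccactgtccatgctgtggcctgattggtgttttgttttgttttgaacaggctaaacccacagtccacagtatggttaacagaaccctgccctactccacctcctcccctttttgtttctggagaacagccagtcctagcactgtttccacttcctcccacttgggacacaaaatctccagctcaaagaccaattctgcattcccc
Gsta3: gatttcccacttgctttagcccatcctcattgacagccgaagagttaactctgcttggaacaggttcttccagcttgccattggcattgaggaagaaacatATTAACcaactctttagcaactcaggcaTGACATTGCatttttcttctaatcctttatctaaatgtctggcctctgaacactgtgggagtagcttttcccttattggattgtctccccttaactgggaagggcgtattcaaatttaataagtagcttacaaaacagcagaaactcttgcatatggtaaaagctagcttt
The Sult2a8 promoter held the TCF letters, read on the opposite strand as ATCAAAG, and the glucocorticoid receptor letters, whereas Ugt2a3 held the partial HNF1 letters in a row, separated by a single base. Sult1a1 held them once, and Gsta3 held them on the opposite strand upstream of the antioxidant response letters. Promoters were matched for 41 of the 46 described members. The partial HNF1 letters were in 9 of these 41 (Gsta3, Sult1a1, Sult1d1, Ugt1a1, Ugt1a6a, Ugt1a9, Ugt1a10, Ugt2a3 and Ugt3a1) and in 7.1% of all 32851 promoters. The full HNF1 letters were in 1, Ugt3a1, and in 0.0396% of all promoters. The antioxidant response letters were in 2 (Gsta3 and Gstm5), against 12.4% of all, the AHR letters in 8, against 32.4%, the TCF letters in 1, against 3.73%, the STAT letters in 2, against 8.3%, the glucocorticoid receptor letters in 2, against 6.85%, and the HNF4 letters in 0, against 0.475%. The RefSeq start of Sult2a8 lies 182 bases from the GENCODE start, and that of Ugt3a1 2941 bases from it. For 5 described members (Gsta2, Gstp2, Gstt1, Sult1c2 and Ugt3a1) the starts lie farther apart than a promoter here is long, so these windows may not be those of the counted transcripts. Such matches describe letters and not sites.

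The HKO library held 14912 barcodes and the WT library 14701, of which 14902 and 14515 were kept, with medians of 3285 and 3423 UMIs, and 70 barcode sequences occurred in both. Hepatocyte-like nuclei numbered 8655 in HKO and 9460 in WT and held 38002265 and 42919246 UMIs. They lay in 3 clusters of each library that shared only 3 nuclei, so cluster and library cannot be told apart. Hepatocyte transcripts were found in all classes, as given with the class results. The mitochondrial share in hepatocyte-like nuclei had a median of 0.0740% in HKO against 0.265% in WT. The summed hepatocyte markers were at 16457 CPM in HKO against 29950 CPM in WT, with albumin (Alb) at 2537 against 6049 CPM. Summed markers of endothelial cells in the same nuclei were at 202 against 210.0 CPM, of macrophages at 243 against 316 CPM and of stellate cells at 124 against 217 CPM. The part of these differences in the results below was not tested. Sox9, the gene named in the genotypes, was at 5.76 CPM (5.02 to 6.58) in HKO against 11.3 CPM (10.3 to 12.4) in WT among hepatocyte-like nuclei, and at 5.82 against 8.54 CPM among endothelial-like ones. Whether a 3' tag of Sox9 lies in the deleted part is not given. The Y-linked Uty was at 309 CPM in HKO against 233 CPM in WT, and Xist at 0.342 against 0.140 CPM.

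All members together made up, among hepatocyte-like nuclei, 2795 CPM (2779 to 2812) in HKO against 3166 CPM (3150 to 3183) in WT. Sult2a8 alone turned this order, since without it the sums were 2647 CPM in HKO against 2492 CPM in WT. By superfamily, the sums in HKO against WT were 1291 against 981 CPM for Gst, 1054 against 1387 CPM for Ugt and 450.4 against 799 CPM for Sult genes. The Gst and Sult orders each turned on 1 gene, since Gst genes without Gsta3 summed to 427 against 475 CPM and Sult genes without Sult2a8 to 302 against 124 CPM. Among the 24 measured members, 2 reached a ratio of 1 or more (2.97% of all 8408 genes measured) and 2 a ratio of -1 or less (4.42% of all genes), with 20 in between. The higher ones were Sult1a1 and Gstm3 and the lower ones Sult2a8 and Ugt2a3. Gstm3 and Ugt1a7c reached the floor on their HKO level alone and Gstk1 and Sult5a1 on their WT level alone, so the side on which these 4 lay was set by the floor. The median ratio of the members was -0.26, with 8 above and 16 below 0, while the median of all genes was 0.16, with 66.4% above 0. Other scalings moved all ratios by -0.14 (median ratio size factors) or -0.12 (TMM). Of all genes, 2.13% were then higher and 5.87% lower under the first, and 2.22% and 5.70% under TMM.

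**Figure D1:**
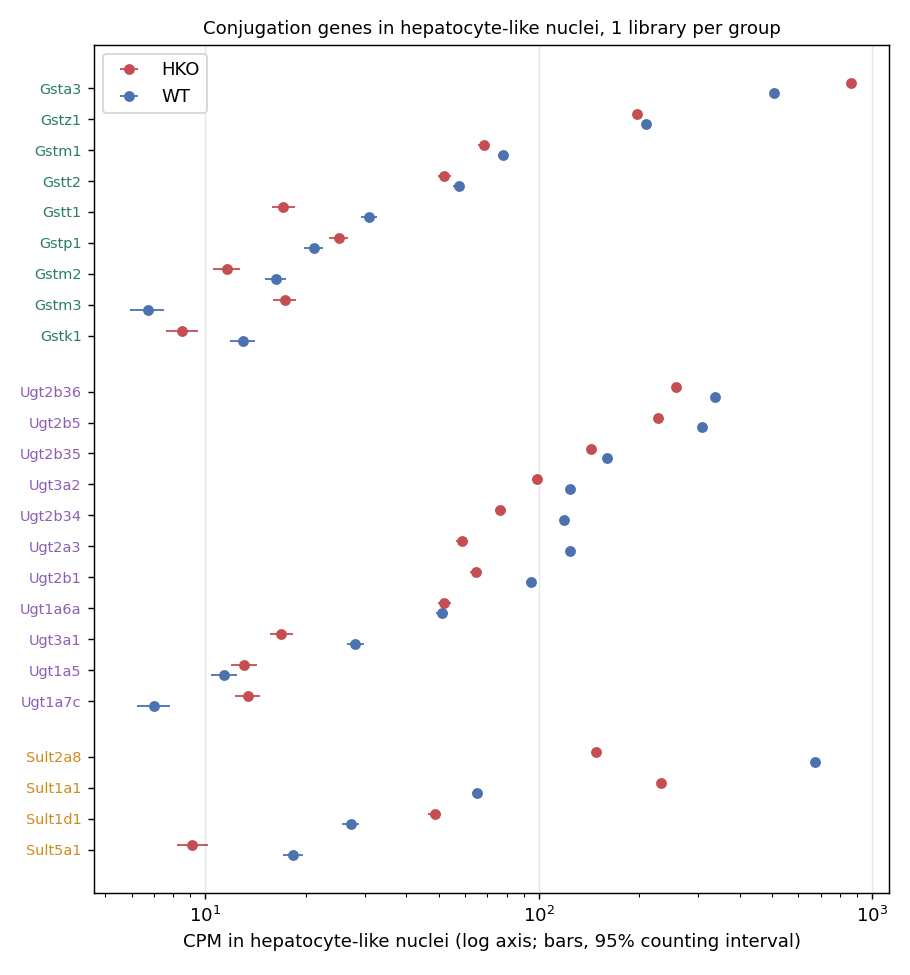
Level of each measured member in hepatocyte-like nuclei of the HKO (red) and WT (blue) library, in CPM on a log axis, with bars for the 95% counting interval and names coloured by superfamily. Sult2a8 and Ugt2a3 lie higher in WT and Sult1a1 and Gstm3 higher in HKO by more than 2-fold.

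Sulfotransferases showed the widest range. Sult2a8, a mouse liver enzyme that sulfates bile acids, was at 148 CPM (144 to 152) in HKO against 675 CPM (667 to 682) in WT. The WT level was 4.56-fold higher (4.43 to 4.69), a log2 ratio of -2.18. Sult2a8 lies on chromosome 7 (minus strand, 14410686 to 14446769 in GRCm38), where the last 500 bases of its longest protein-coding transcript shared no 50-base window with another gene.

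Sult1a1, the phenol sulfotransferase, went the other way, at 232 CPM (227 to 237) in HKO against 65.3 CPM (62.9 to 67.7) in WT. The HKO level was 3.56-fold higher (3.41 to 3.71), a log2 ratio of 1.82. The gene spans chromosome 7, 126672865 to 126676432, on the minus strand, and overlaps Sgf29 on the opposite strand. No source used here says whether counting used strand, so UMIs of the pair may not be told apart.

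Sult1d1, an enzyme for catecholamines and small phenols, was at 48.7 CPM (46.5 to 51.0) in HKO against 27.3 CPM (25.7 to 28.9) in WT, a log2 ratio of 0.83. Sult5a1 was at 9.13 CPM (8.20 to 10.1) in HKO against 18.3 CPM (17.1 to 19.7) in WT, a log2 ratio of -0.97, which passed -1 under median ratio size factors (-1.10) and TMM (-1.09) and was -0.58 at a clustering resolution of 1. Both stayed inside the size in the main scaling. The other 4 described Sult genes were under 10 CPM. Among them Sult1b1, which acts on thyroid hormones, was at 9.74 and 8.48 CPM in HKO and WT, Sult1c2 at 1.05 and 1.19 CPM and Sult1e1, the oestrogen sulfotransferase, at 0.974 and 0.163 CPM. Sult2a7, the neighbour of Sult2a8, was at 0.158 CPM in HKO (0.0579 to 0.344) and 2.73 CPM in WT (2.25 to 3.27), in the same direction as Sult2a8.

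Among glutathione transferases, Gsta3 had the most UMIs of any member, 48470 in HKO and 30567 in WT over all barcodes. Its product, of the alpha class, detoxifies the epoxide of aflatoxin in mice. Its level was 864 CPM (855 to 874) in HKO against 506 CPM (499 to 513) in WT, 1.71-fold higher in HKO (1.68 to 1.74) and a log2 ratio of 0.77. The gene lies on chromosome 1, 21240589 to 21265661, plus strand, and overlaps the gene model Gm28836 on the opposite strand.

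Gstz1, the isomerase of tyrosine breakdown, was at 197 CPM (193 to 202) in HKO against 209 CPM (205 to 214) in WT, a ratio of -0.09. Gstt2, of the theta class, was at 52.1 CPM in HKO against 57.5 CPM in WT, a ratio of -0.14. These levels lay close together in the libraries. Gstt1, its theta class neighbour, was at 17.1 CPM (15.8 to 18.5) in HKO against 30.9 CPM (29.2 to 32.6) in WT, a ratio of -0.83, and Gstk1, the mitochondrial and peroxisomal enzyme of the kappa class, at 8.53 and 12.9 CPM, a ratio of -0.57. Gstp1, of the pi class, was at 25.1 CPM in HKO against 21.2 CPM in WT, a ratio of 0.24. Its last 500 bases share 75.2% of their 50-base windows with Gstp2 and a pseudogene, so counts of the pair may be split.

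The mu class genes, packed on chromosome 3 between 107895821 and 108044894, lay on both sides. Gstm3 was at 17.3 CPM (16.0 to 18.6) in HKO against 6.71 CPM (5.96 to 7.53) in WT, 2.57-fold higher in HKO (2.24 to 2.97), a log2 ratio of 1.30. Gstm1 was at 68.3 and 78.0 CPM, a ratio of -0.19, and Gstm2 at 11.6 and 16.2 CPM, a ratio of -0.47. Under 10 CPM, Gstm7 was at 1.47 CPM (1.11 to 1.91) in HKO against 9.55 CPM (8.65 to 10.5) in WT and Gstm6 at 2.76 and 7.92 CPM, both lower in HKO, with Gstm4 at 3.21 and 5.36 CPM and Gstm5 at 0.50 and 1.33 CPM. So in this row of 7 genes Gstm3 was higher in HKO and the other 6 had lower values there. Gstm1 and Gstm3 share 0.887% of the windows of their ends, and Gstm4 to Gstm7 none.

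Of the remaining Gst genes under 10 CPM, Gsta2 was at 8.55 CPM in HKO against 3.61 CPM in WT, Gstp2 at 3.11 and 1.0 CPM and Gsta1 at 1.13 and 0.583 CPM, all higher in HKO. Gsta4, which detoxifies the lipid peroxidation product hydroxynonenal, was at 2.37 CPM in HKO against 5.29 CPM in WT, and Gstt3 at 1.61 and 2.45 CPM. Gsto1, of the omega class, was at 4.76 and 4.68 CPM. Gsta1, Gsta2 and Gstp2 share 90.0%, 51.0% and 88.9% of the windows of their ends with other genes, so their values are uncertain.

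Glucuronosyltransferases of the 2 and 3 families were all lower in HKO among those measured. Ugt2b36 was at 258 CPM (253 to 263) in HKO against 338 CPM (333 to 344) in WT, a ratio of -0.39, and Ugt2b5 at 228 and 309 CPM, a ratio of -0.44. Ugt2b enzymes act on steroids, fatty acids and many drugs. Ugt2b35 was at 143 CPM in HKO against 160 CPM in WT (ratio -0.16), Ugt2b34 at 76.7 and 119 CPM (ratio -0.63) and Ugt2b1 at 64.8 and 94.4 CPM (ratio -0.54). Ugt2a3, whose human counterpart glucuronidates bile acids, was at 58.8 CPM (56.3 to 61.2) in HKO against 124 CPM (121 to 128) in WT, 2.12-fold higher in WT (2.01 to 2.22) and a log2 ratio of -1.08. Only Ugt2a3 passed the size. It lies on chromosome 5, 87324972 to 87337195, minus strand, in a block of 13 members from 86889767 to 87591594 that also holds Sult1d1, whose ratio had the opposite sign. Ugt3a2, which uses UDP-sugars other than UDP-glucuronic acid, was at 98.7 and 124 CPM (ratio -0.33) and Ugt3a1 at 16.9 and 28.2 CPM (ratio -0.72). Ugt2b37 and Ugt2b38 were under 2 CPM in both libraries.

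The Ugt1a genes share their last exons and differ in the first, on chromosome 1 from 88055388 to 88220002 on the plus strand. A 3' tag from the shared exons cannot tell them apart, since 8 of the 9 share 100% of the windows of their ends with other Ugt1a genes, so single Ugt1a values are uncertain. For Ugt1a7c the end compared was that of its longest transcript, of 3302 bases, which shared no window. Windows from the ends of the other 8 were also found in Ugt1a7c, so its value is uncertain too. As counted, the fold of HKO over WT was largest for the 4 most upstream genes and smallest for the most downstream one. It was 3.47 (2.88 to 4.20) for Ugt1a10, 3.76 (2.79 to 5.13) for Ugt1a9, 4.68 (2.01 to 12.7) for Ugt1a8 and 1.91 (1.66 to 2.21) for Ugt1a7c. The first 3, all under 10 CPM on average, had overlapping intervals. It was 1.14 for Ugt1a6b, 1.02 for Ugt1a6a, 1.15 for Ugt1a5, 1.08 for Ugt1a2 and 0.678 (0.571 to 0.804) for Ugt1a1, the bilirubin enzyme. In levels, Ugt1a6a, which acts on planar phenols, was at 52.1 CPM in HKO against 51.3 CPM in WT, Ugt1a7c at 13.4 and 6.99 CPM, Ugt1a5 at 13.0 and 11.4 CPM, Ugt1a10 at 12.2 and 3.52 CPM and Ugt1a1 at 5.82 and 8.57 CPM. This order was noticed after the values were seen and is a description.

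At a lower floor of 1 CPM, 6 members were higher (3.31% of 12938 genes) and 6 lower (4.52%) past a log2 ratio of 1. The added ones were Ugt1a10, Ugt1a9, Gsta2 and Gstp2 on the higher side and Gstm7, Gstm6, Sult2a7 and Gsta4 on the lower side. Sult2a7 reached this lower floor on its WT level alone, so its side was set by the floor. Over the 22 described members under 10 CPM, 12 ratios lay above and 10 below 0.

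**Figure D2:**
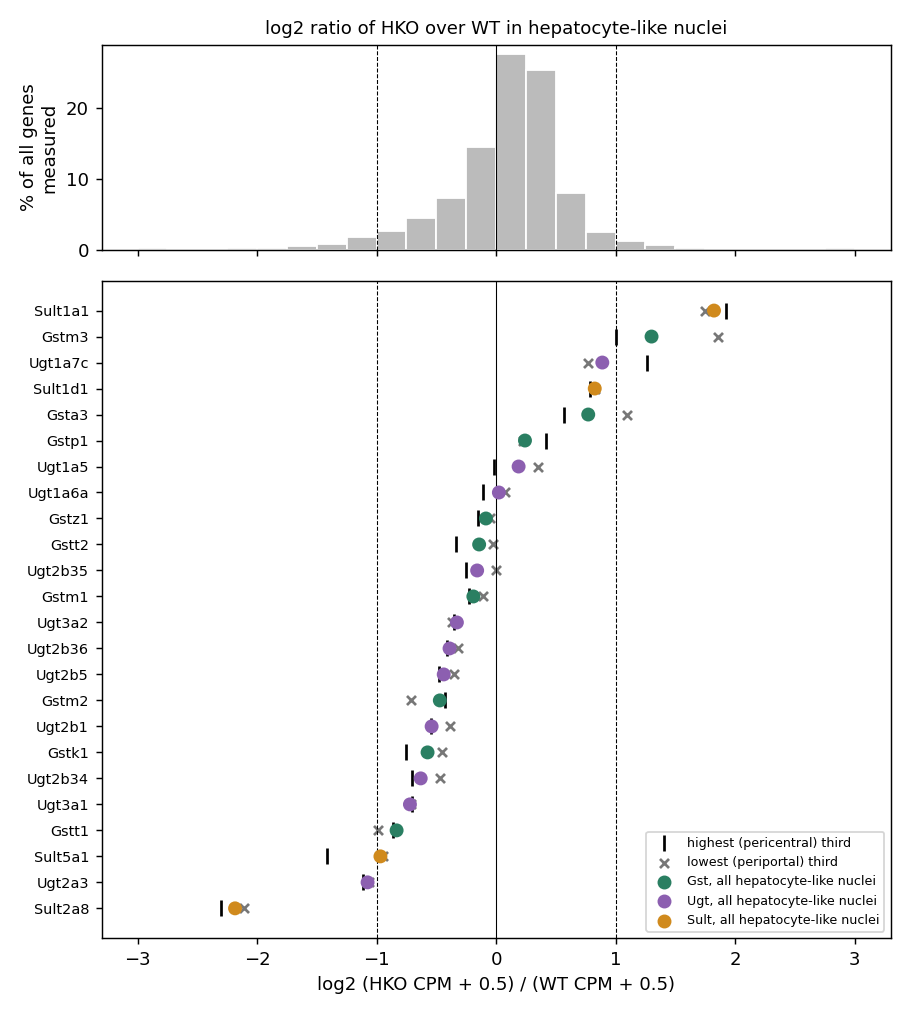
Upper panel, share of all 8408 genes measured by log2 ratio of HKO over WT in hepatocyte-like nuclei. Lower panel, ratio of each measured member (dots coloured by superfamily) with its ratio within the pericentral tercile (bars) and the periportal tercile (crosses) of nuclei. The 4 members past the dashed lines at -1 and 1 are Sult1a1, Gstm3, Ugt2a3 and Sult2a8.

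The ratios were set beside the mitochondrial share, which differed between libraries. Among nuclei with a share of 0.05 to 0.2%, 3774 in HKO and 3114 in WT with medians of 0.0948% and 0.141%, Sult2a8 had a ratio of -2.35, Ugt2a3 of -1.07, Sult1a1 of 1.86 and Gstm3 of 1.32, and Sult5a1 passed the size at -1.06. Across 9 other choices of nuclei or scaling, each of which recomputed the ratio, 23 of the 24 members kept the sign of their ratio in every one, and Ugt1a6a did not (-0.12 to 0.06). Over those choices Sult2a8 ranged from -2.53 to -2.13, Sult1a1 from 1.68 to 1.89, Gstm3 from 1.16 to 1.39 and Ugt2a3 from -1.21 to -1.04. The part that RNA composition or a single animal had in the ratios was not tested.

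To place the members in the lobule, each hepatocyte-like nucleus was scored by 14 pericentral minus 14 periportal markers, none of them a member, and the nuclei of each library were cut into terciles, 3 parts of equal size. Summed pericentral markers were at 1700 CPM in HKO against 3324 CPM in WT and periportal ones at 8629 against 7129 CPM, so terciles are relative within a library. A score is a range and not a zone: 15.6% of HKO and 15.5% of WT nuclei lay within 0.1 SD of a cut. Left out of its own score, each of the 28 markers lay in its own direction in both libraries. Median contrasts (log2 of highest over lowest tercile) were 2.13 in HKO and 1.79 in WT for pericentral and -1.09 and -1.20 for periportal markers. A contrast of 0.5 in size was passed in both libraries by all 14 pericentral markers but by 11 of the 14 periportal ones. Past 0.5 in the same direction in both libraries lay 4 members on the pericentral side (1.81% of all genes) and 1 on the periportal side (1.76%). The pericentral ones were Gsta3, Gstm2, Gstt1 and Sult2a8, and the periportal one was Sult5a1.

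From the lowest, periportal tercile over the middle to the highest, pericentral tercile, Gsta3 was at 680, 840.5 and 1091 CPM in HKO, and at 318, 477 and 734 CPM in WT. The contrasts were 0.68 in HKO and 1.20 in WT. In the same order Sult2a8 was at 97.7, 163 and 189 CPM in HKO and at 424, 680 and 934 CPM in WT, contrasts of 0.95 and 1.14. Its highest HKO tercile thus stayed below its lowest WT tercile. Gstm2 was at 7.02 CPM in the lowest and 16.5 CPM in the highest tercile in HKO and at 11.8 and 22.4 CPM in WT, contrasts of 1.18 and 0.89. Gstt1 was at 12.8 and 21.2 CPM in HKO and at 25.9 and 39.1 CPM in WT, contrasts of 0.71 and 0.59, but after thinning each nucleus to 2000 UMIs its WT contrast was 0.26.

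Sult5a1 had the opposite slope. It was at 15.8 CPM in the periportal, 8.19 CPM in the middle and 2.69 CPM in the pericentral tercile in HKO, and at 30.9, 15.3 and 8.03 CPM in WT. The periportal level was 5.87-fold higher (4.05 to 8.74) in HKO and 3.85-fold higher (3.13 to 4.77) in WT, log2 contrasts of -2.35 and -1.88. The slope in HKO lay between those of the periportal markers Cyp2f2 (-2.37 in HKO and -1.91 in WT) and Hal (-2.26 and -2.50). In WT it was less steep than both. Sult5a1 was steeper than the median periportal marker in both libraries (-1.09 and -1.20). Its last 500 bases share 8.0% of their windows with unrelated genes, and it overlaps the gene model Gm20388 on the opposite strand.

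**Figure D3:**
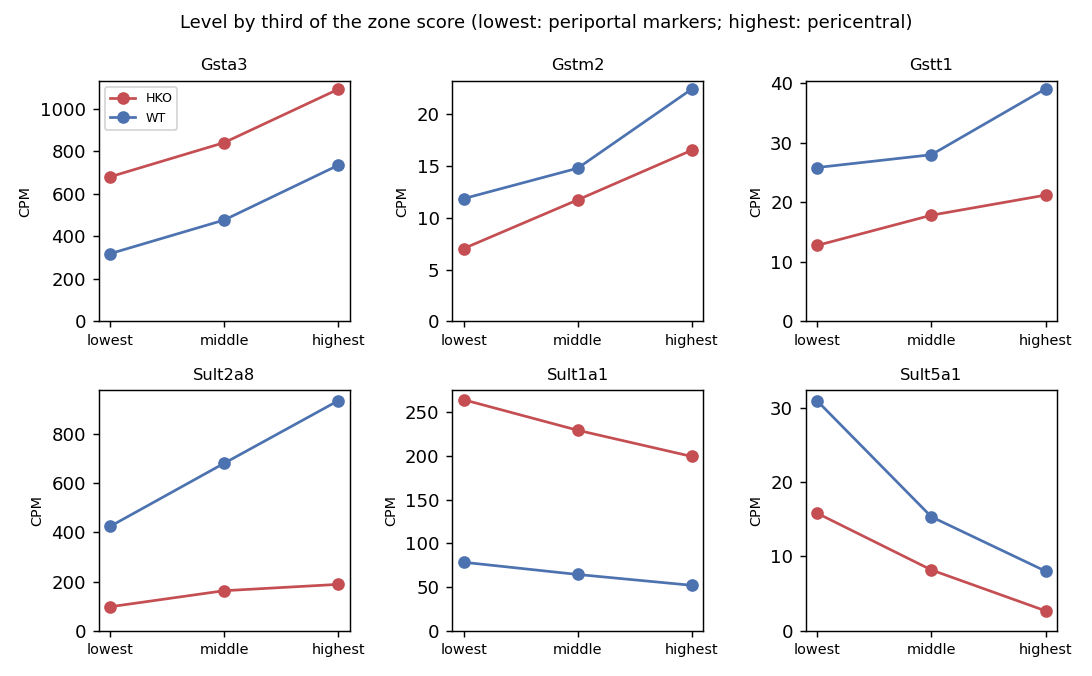
CPM of 6 members in the lowest, middle and highest tercile of the zone score in HKO (red) and WT (blue), axes starting at 0. Gsta3, Gstm2, Gstt1 and Sult2a8 are highest at the pericentral end in both libraries, and Sult1a1 and Sult5a1 are lowest there.

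Sult1a1 lay on the periportal side in both libraries but passed 0.5 only in WT. It was at 264 CPM in the lowest and 199 CPM in the highest tercile in HKO and at 78.5 and 52.1 CPM in WT, contrasts of -0.41 and -0.59, and with quintiles in place of terciles it passed in both, at -0.54 and -0.72. Gstm3 lay on the pericentral side at 0.48 in HKO and 1.34 in WT. It passed in both libraries with quintiles (0.66 and 1.60), without P450 markers in the score (0.57 and 1.30) and at a clustering resolution of 1 (1.09 and 1.37). Among the 11 measured Ugt genes none passed 0.5 in both libraries with terciles, with median contrasts of 0.14 and 0.19. Ugt2b1, at 0.47 and 0.63, passed with quintiles and at the resolution of 1. Ugt2b36, for example, was at 260 CPM in the lowest and 261 CPM in the highest tercile in HKO, and at 325 and 347 CPM in WT. Gstz1 was similarly level, at 199 and 197 CPM in HKO and 207 and 219 CPM in WT.

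**Figure D4:**
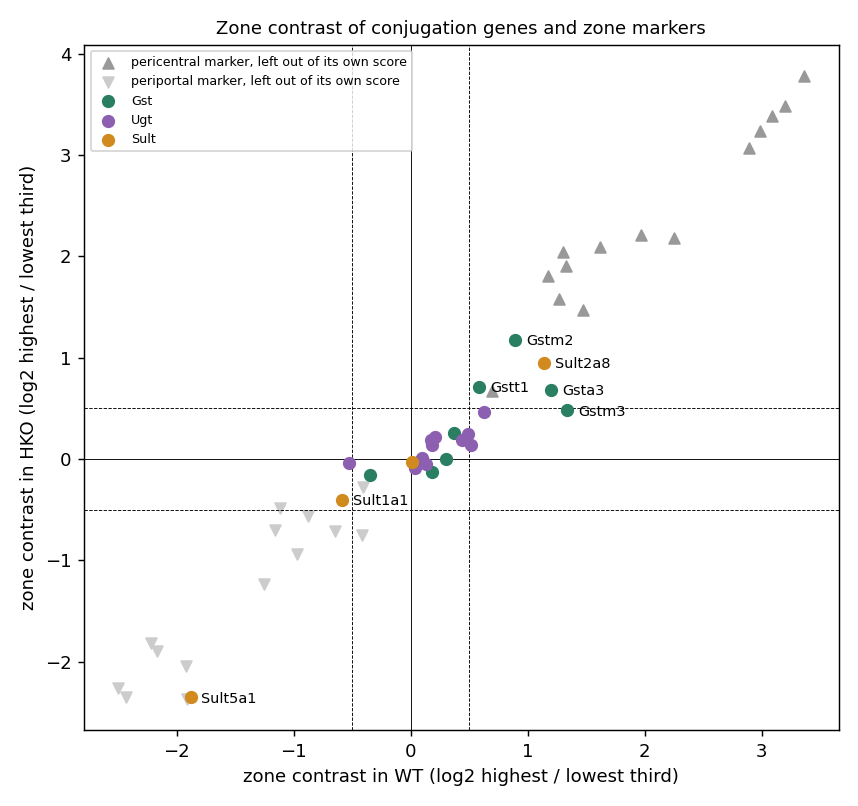
Zone contrast (log2 of CPM in the highest over the lowest tercile) in WT against HKO for the measured members (dots coloured by superfamily) and the zone markers, each left out of its own score (grey triangles). Dashed lines mark 0.5 and -0.5. Sult5a1 lies among the periportal markers, and Gstm2, Sult2a8, Gsta3 and Gstt1 lie past 0.5 on both axes.

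A second view used the clusters with Glul, the glutamine synthetase of the cells around the central vein, among their leading genes, 713 nuclei in HKO and 1824 in WT. Gsta3 was at 1240.3 CPM there and 832 CPM in the other hepatocyte-like nuclei in HKO, and at 806 and 426 CPM in WT. It was the only measured member past 0.5 on the pericentral side in both libraries (1.62% of all genes). Sult2a8 was at 183 and 145 CPM in HKO and at 1007 and 586 CPM in WT. Sult5a1 was at 2.65 and 9.69 CPM in HKO and 7.20 and 21.3 CPM in WT. This view was added after the data were seen.

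Within terciles, the library ratios kept their side in most members. Sult2a8 had a ratio of -2.30 in the pericentral and -2.11 in the periportal tercile, Sult1a1 of 1.93 and 1.75 and Ugt2a3 of -1.11 and -1.06. Gstm3 had 1.0 and 1.86 and Gsta3 0.57 and 1.09, both with a larger HKO excess at the periportal end. In 21 of the 24 members the ratio had the same sign in both terciles. No share of all genes was set beside this count, so it is not read as particular to the members. Whether the slopes differ between genotypes cannot be tested with 1 library per group.

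No member with at least 10 UMIs was 2-fold or more above the hepatocyte-like level in endothelial-like (6.79% of 15003 genes), macrophage-like (8.61%), stellate-like (9.54%) or T/NK-like nuclei (1.81%) in both libraries. Over these 4 classes together, 15.2% of all genes were. The median of the 24 members, as a share of their level among hepatocyte-like nuclei, was 86.7% in HKO against 90.2% in WT for endothelial-like nuclei, where 15 hepatocyte markers had a median of 87.9% against 95.1%. For macrophage-like nuclei the members' median was 82.1% against 83.8% and the markers' 84.7% against 87.5%. For stellate-like nuclei it was 77.1% against 77.9% beside 78.9% against 90.4%, and for T/NK-like nuclei 87.2% against 101.9% beside 92.3% against 101.4%. Median depths were 2066 UMIs in HKO against 3266.5 in WT for endothelial-like and 3916 against 3809 for hepatocyte-like nuclei. Member medians in other classes thus lay near those of the hepatocyte markers, or below them as in stellate-like nuclei of WT (77.9% beside 90.4%). Single members departed from the medians, as given below. Member values in those classes are not read as expression there, and whether they come from hepatocyte RNA was not tested.

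The sign of the library ratio was that in hepatocyte-like nuclei for 24 of the 24 members in endothelial-like, 23 in macrophage-like, 22 in stellate-like and 20 in T/NK-like nuclei. No share of all genes with the same sign was set beside these counts, so they are not read as particular to the members. Over endothelial-like, macrophage-like, stellate-like and T/NK-like nuclei in turn, Sult2a8 had ratios of -2.20, -2.39, -2.04 and -1.96, and Sult1a1 of 1.71, 1.68, 1.54 and 1.44. Gstk1 was the measured member that stood above its hepatocyte-like level in endothelial-like nuclei of both libraries, at 11.7 against 8.53 CPM in HKO (1.38-fold, 1.09 to 1.72) and 15 against 12.9 CPM in WT (1.16-fold, 0.904 to 1.47). The WT interval includes equal levels. In stellate-like nuclei Gstt1 was 1.12-fold (0.880 to 1.40) and 1.24-fold (1.01 to 1.51) above. It was 1 of 2 measured members above in both libraries there, with 1 such member in T/NK-like and 0 in macrophage-like nuclei. Gstm4, under 10 CPM, was 2.42-fold above in T/NK-like nuclei of HKO and 2.0-fold in WT, on 8 and 5 UMIs, fewer than the 10 required.

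**Figure D5:**
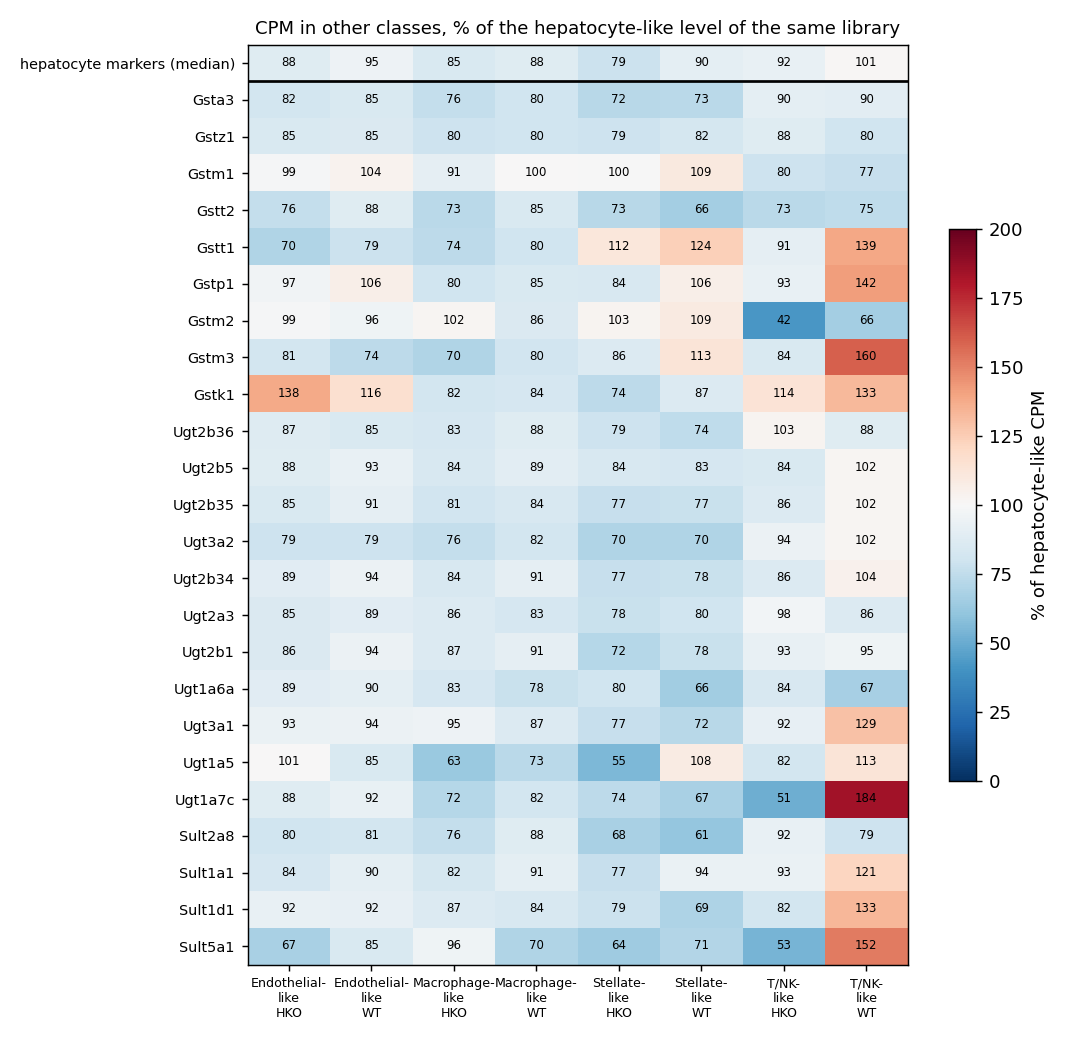
CPM of each measured member in 4 other classes as a percent of its hepatocyte-like CPM in the same library, with the median of the hepatocyte markers in the top row. In endothelial-like nuclei the members lie between 67.5 and 138% in HKO and between 73.6 and 116% in WT, around the marker row, and the highest value is 184% in T/NK-like nuclei of WT. That class held 111 nuclei in WT.

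Genes that supply, extend or regulate conjugation are given by lists chosen by function. Of 19 measured genes that supply the cofactors, none passed a ratio of 1 in size, with a median of 0.04. Of all 8408 genes measured, 2.97% were higher and 4.42% lower past that size. Ugdh, which makes UDP-glucuronic acid, was at 274 CPM in HKO against 140 CPM in WT (ratio 0.96), while Gclc and Gclm, the subunits of the enzyme that starts glutathione synthesis, were at 277 and 500.5 CPM (ratio -0.85) and 94.1 and 160 CPM (ratio -0.76). Ahcy, which clears S-adenosylhomocysteine, had a ratio of 0.82. Of 17 other conjugation and hydrolysis genes, 3 were higher (2.97% of all genes), 1 lower (4.42%) and 13 inside the size (median ratio -0.09). The methyltransferase genes Bhmt and As3mt had ratios of 2.02 and 1.29, and the epoxide hydrolase Ephx2 of 1.11. The indolethylamine methyltransferase Inmt had a ratio of -2.08, at 8.50 CPM in HKO against 37.5 CPM in WT. Inmt reached the floor on its WT level alone, so its direction was set by the floor.

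Of 13 transporters of conjugates and bile acids, 2 were higher (2.97% of all genes), 1 lower (4.42%) and 10 inside the size (median ratio 0.04). Slco1a4, an uptake carrier, was at 273 CPM in HKO against 75.5 CPM in WT (ratio 1.85) and Abcc3, an exporter of glucuronides into blood, at 166 and 66.1 CPM (ratio 1.32). Abcb11, the bile salt export pump, was at 486 and 1355 CPM (ratio -1.48). Of 17 sensors and partners, 2 were higher (2.97% of all genes) and 15 in between, with a median of 0.23. The higher ones were Nr1i3, the receptor CAR, at 569 CPM in HKO against 263 CPM in WT (ratio 1.11), and Por, the P450 reductase, at 949.5 and 435 CPM (ratio 1.12). Nr1i2, the receptor PXR, and Nr1h4, the bile acid receptor FXR, had ratios of 0.85 and 0.63. Of 13 NRF2 targets outside the families, 1 was higher (2.97% of all genes), 1 lower (4.42%) and 11 inside the size (median ratio -0.13). The higher one was Abcc3, which is counted among the transporters as well. The lower one was Osgin1, at 57.7 CPM in HKO against 325 CPM in WT (ratio -2.48). Hmox1, the haem oxygenase, had a ratio of 0.83, at 15.5 CPM in HKO against 8.50 CPM in WT. It reached the floor on its HKO level alone, so its direction was set by the floor.

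Genes with a known sex bias in mouse liver were set beside the members, since both libraries carried Y-linked transcripts. The female-biased conjugation genes Sult2a1, Sult2a2, Sult2a3, Sult2a5, Sult2a6 and Sult3a1 had 14 UMIs or fewer each over both libraries, and none of the 7 in the files, Sult1e1 included, reached 10 CPM. Of the 4 male-biased ones, Gstp1 (ratio 0.24) and Ugt2b1 (ratio -0.54) were measured. Outside the families, 2 of 15 female-biased genes reached the floor, both on their HKO level alone, Cux2 at 93.6 CPM against 2.82 CPM in WT and Fmo2 at 21.5 against 2.77 CPM, so their direction was set by the floor. The other 13 were under it, among them Cyp17a1 at 5.71 against 1.70 CPM and Prom1 at 0.395 against 2.28 CPM, both named after their values were seen. Of 12 measured male-biased genes, 3 were lower (4.42% of all genes) and 9 lay in between, Cyp4a12b among them at a ratio of 0.85. The lower ones were Hsd3b5 at 6.08 against 57.9 CPM, Serpina1e at 290.1 against 1451 CPM and Nudt7 at 190.3 against 928 CPM. Hsd3b5 and Cyp2u1 (8.32 against 13.6 CPM) reached the floor on their WT level alone. Cyp4a12b (17.7 against 9.58 CPM) did so on its HKO level alone. The direction of these 3 genes was thus set by the floor.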

How the data were processed

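Nuclear RNA was profiled by 10x 3' sequencing in 1 HKO and 1 WT library, grouped by sample title, since the genotype field holds the age. The deposited values are raw UMI counts per gene and barcode, made by the authors with Cell Ranger 5.0.0, per the file headers. The submitters' processing notes also name STAR, Seurat 3.2.0 and GRCm38. The annotation, intron counting and isolation of nuclei are not given in the sources used here, and the protocol given for extraction is one for total RNA.

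Kept were barcodes of 500 or more genes with less than 10% of UMIs from mitochondria, 14902 in HKO and 14515 in WT. Doublets were not called or removed. Nuclei were clustered without batch correction on 2000 variable genes, members left out, with 30 principal components, 15 neighbours and Leiden at resolution 0.5 (scanpy 1.11.5, leidenalg 0.10.2, Python 3.11.15). Clusters were named from marker lists, with thresholds set after the data were seen (3 or more markers at least 2-fold above the cluster median, a mean log2 score of at least 1.5, markers of at least 20 CPM in some cluster). Clusters with 5 or more mitochondrial or haemoglobin genes among the 10 leading ones stayed unnamed, and clusters with no such score were named hepatocyte-like where at least 3 hepatocyte markers exceeded the other classes of the same library.

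For each class of a library, UMIs were added up and scaled to CPM. Levels carry exact Poisson and folds exact conditional 95% intervals. Ratios used a pseudocount of 0.5 CPM and a floor of 10 CPM, with no test, since each group has 1 library. Zone markers needed 20 CPM, classes 100 nuclei per library. Members and lists were chosen with earlier results of these data known. Named were the 4 members of each superfamily with most UMIs, those past the sizes and up to 4 genes of each list with the largest ratio. Others were chosen after their values were seen. The calculation was tested on simulated counts. Scaling alternatives used edgeR 4.0.16. Coordinates and transcript ends come from GENCODE on GRCm38.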

Additional observations from a re-analysis of the deposited data

Results flagged for a closer look

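Members were also found in nuclei that the comparisons left out. In WT nuclei of the cluster led by mitochondrial genes, left unnamed, members summed to 3107 CPM (3061 to 3154) over 1979 nuclei, beside 3166 CPM in WT hepatocyte-like nuclei. In cholangiocyte-like nuclei of HKO they summed to 2352 CPM (2185 to 2527) over 123 nuclei, beside 2795 CPM in hepatocyte-like nuclei of that library. Hepatocyte markers in those cholangiocyte-like nuclei had a median of 81.6% of the hepatocyte-like level.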

How the results depend on the processing

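The median ratio of the members, -0.26, was -0.47 under median ratio size factors, -0.38 under TMM, -0.37 over all nuclei and -0.36 without the cycling clusters, an alternative chosen after seeing the data. The main and TMM settings had 24 measured members and each of the others named here 23, so the set of members changed as well. With the floor at 1 CPM, 6 members were higher (3.31% of all genes) and 6 lower (4.52%). Sult2a7, among the lower ones, reached that floor on its WT level alone. With the floor at 50 CPM, 1 was higher (3.34% of all genes), and Ugt2a3 and Sult2a8 were lower (4.73%). With a log2 size of 0.5, 5 were higher (13.5% of all genes) and 8 lower (11.7%). Pericentral members, 4 with terciles (1.81% of all genes), numbered 6 with quintiles of the zone score (2.47%) and 6 at a clustering resolution of 1 (1.88%). They numbered 5 without P450 markers (1.74%), 3 after thinning (1.69%), 1 in the clusters led by Glul (1.62%) and 0 at a zone size of 1 (0.749%). Periportal members numbered 2 with quintiles (2.35% of all genes). The count of members above hepatocyte-like nuclei in another class was 0 in every setting run. At a clustering resolution of 1 the hepatocyte-like class held 4988 HKO nuclei in place of 8655, and the same members passed the ratio size. No paired analysis was possible because each group has 1 library and no result comes from a test. Leaving out a replicate was not possible for the same reason. Depth limits the 15 members under 50 UMIs, and no value separates genotype from animal or library.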
